A study of Notophthalmus viridescens with 3 samples.

Results

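Probes for miR-29, miR-199a, miR-214 and miR-140, microRNAs tied to extracellular matrix and connective tissue, were followed through heart regeneration in the adult red-spotted newt, Notophthalmus viridescens. Of 1365 miRNA probes on the array, 14 carry one of the chosen names in human (hsa), zebrafish (dre) or frog (xtr) form, with passenger-strand names ending in * left out. They were taken by name, not by signal. Of these probes, 8 were detected on all 3 arrays, 4 on some and 2 on none. The RNA was from whole hearts, and each of 3 states gave 1 sample: uninjured, 7 days after injury (days post injury, dpi) and 21 dpi. Every sample had 1 array, stained with Cy3. The labels state neither how many animals a sample holds nor any genotype or sex, and they refer to an earlier paper for the injury.

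MicroRNAs are short RNAs that guide silencing complexes to messenger RNAs, mainly through bases 2 to 8, the seed. In mammals miR-29 represses collagens, elastin and fibrillin, and its loss after infarction goes with more matrix. The miR-199a and miR-214 hairpins lie in one antisense transcript of the dynamin 3 gene in mammals and are expressed in mesenchymal cells. miR-199a-3p promotes cardiomyocyte division when added to rodent hearts, and miR-214 limits calcium overload in the mouse heart. miR-140 is best known from cartilage, where it supports chondrocytes.

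The target sequences below, from the array annotation, show how little separates the miR-29 probes and which part each family uses to find its targets, with the seed in capitals.
hsa-miR-29c: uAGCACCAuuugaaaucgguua
hsa-miR-29a: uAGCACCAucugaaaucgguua
hsa-miR-29b: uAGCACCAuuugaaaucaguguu
xtr-miR-29d: uAGCACCAuaugaaaucaguguc
hsa-miR-199a-5p: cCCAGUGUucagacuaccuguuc
hsa-miR-199a-3p: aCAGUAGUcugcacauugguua
hsa-miR-214: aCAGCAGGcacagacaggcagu
hsa-miR-140-5p: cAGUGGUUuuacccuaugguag
hsa-miR-140-3p: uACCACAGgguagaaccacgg

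All 7 miR-29 targets share the seed AGCACCA, and no other probe on the array carries it. Positions are counted from 1 at the 5′ end of the first-named target. hsa-miR-29a differs from hsa-miR-29c by U10C alone. hsa-miR-29b differs from hsa-miR-29c by G18A, U21G and A22U and has 1 more base, and xtr-miR-29d differs from hsa-miR-29b by U10A and U23C. The targets of xtr-miR-29a and xtr-miR-29c are that of hsa-miR-29c shortened at the 3′ end by 1 and 2 bases, and dre-miR-29b is hsa-miR-29b without its last base. xtr-miR-214 is likewise hsa-miR-214 without its last base, and xtr-miR-140 is hsa-miR-140-5p without its first, which moves its seed by 1 base. The probe named hsa-miR-140-5p also stands for zebrafish miR-140, and hsa-miR-199a-5p for frog miR-199a and zebrafish miR-199. GC content of the targets ran from 34.8% to 61.9% with a median of 40.9%, against a median of 47.8% over all 1365 probes. Probes so alike can capture each other's targets, and a newt miRNA of another sequence would pair with mismatches, so a signal belongs to a probe and not to one newt gene.

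Signal is the median brightness of a spot minus the median of the empty spots on its array, and each probe has 3 replicate spots. A probe counts as detected where its median spot exceeds percentile 95 of the empty spots. As raw intensity, before the empty-spot median is taken off, that minimum was 73.8, 77.5 and 103 on the uninjured, 7 dpi and 21 dpi arrays. The empty-spot medians were 68.0, 71.7 and 71.4, and 225, 220 and 180 probes were above the minimum. It lay farther above the empty spots at 21 dpi, so a signal detected at 7 dpi can count as undetected at 21 dpi. Over the 169 probes detected on all arrays, the median ratio of signal to the uninjured heart was 0.371 at 7 dpi and 1.33 at 21 dpi. Of 6 markers of heart and skeletal muscle, 5 were detected on every array (miR-208a was not), and the neural markers miR-9 and miR-124 were not detected. Of 7 epithelial markers, 4, 3 and 1 were detected on the uninjured, 7 dpi and 21 dpi arrays. The summed signal of 5 leukocyte markers was 172, 302 and 637 on the 3 arrays before normalization. After it, the median difference of the 3 detected on all arrays was 1.48 at 7 dpi and 0.72 at 21 dpi against the uninjured heart, and -0.62 at 21 dpi against 7 dpi. The leukocyte marker miR-142-3p went another way and was detected at 21 dpi alone. It stood at -0.06 at 7 dpi and 0.82 at 21 dpi against the uninjured heart, and at 0.87 for 21 dpi against 7 dpi. miR-142-5p was not detected. Liver miR-122 was detected at 7 dpi only. Their part in the values below was not tested.

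Differences are on the log2 scale after quantile normalization, and ± marks the standard error from the 3 spots of both arrays, a purely technical spread. Normalization moved the median of the 169 probes from 8.88, 7.70 and 9.23 to 8.60 on each array, so a difference is relative to that shift. No state has a second sample, so differences have no replicate check and no p-value. A probe was called where its difference was at least 1 in size, meaning 2-fold, with detection on at least 1 array and no overlap between the spots of the arrays. Because the RNA is from whole hearts, fewer cells of a type and less RNA per cell cannot be told apart.

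None of these probes reached 2-fold in any comparison. At 7 dpi against the uninjured heart 0 of 11 tested probes were called, where 12.5% of all 255 tested were. At 21 dpi against the uninjured heart the count was 0 of 12, beside 3.04% of 230, and at 21 dpi against 7 dpi it was 0 of 10, beside 12.6% of 231. With shares that small and so few probes, the counts do not set the group apart from the array. Among the 8 probes detected on all arrays the median difference was -0.15 at 7 dpi and -0.06 at 21 dpi, beside -0.13 and 0.00 over all 169. In the comparison of 21 dpi with 7 dpi these medians were 0.04 and 0.20. Differences under 0.5 in size made up 6, 7 and 5 of the 8 in the 3 comparisons (75%, 87.5% and 62.5%). The shares over all 169 were 71.0%, 74.0% and 60.9%, so these counts do not set the group apart either. The count of 0 depends on how arrays are scaled and on the background step. Without normalization, when the dim 7 dpi array enters as it is, 6 were called at 7 dpi. With scaling to the spike-in probes 7 were called at 7 dpi and 8 at 21 dpi. Calls over all tested probes also rose steeply under these settings, as the last section gives, so the rise is not particular to these probes.

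**Figure D1:**
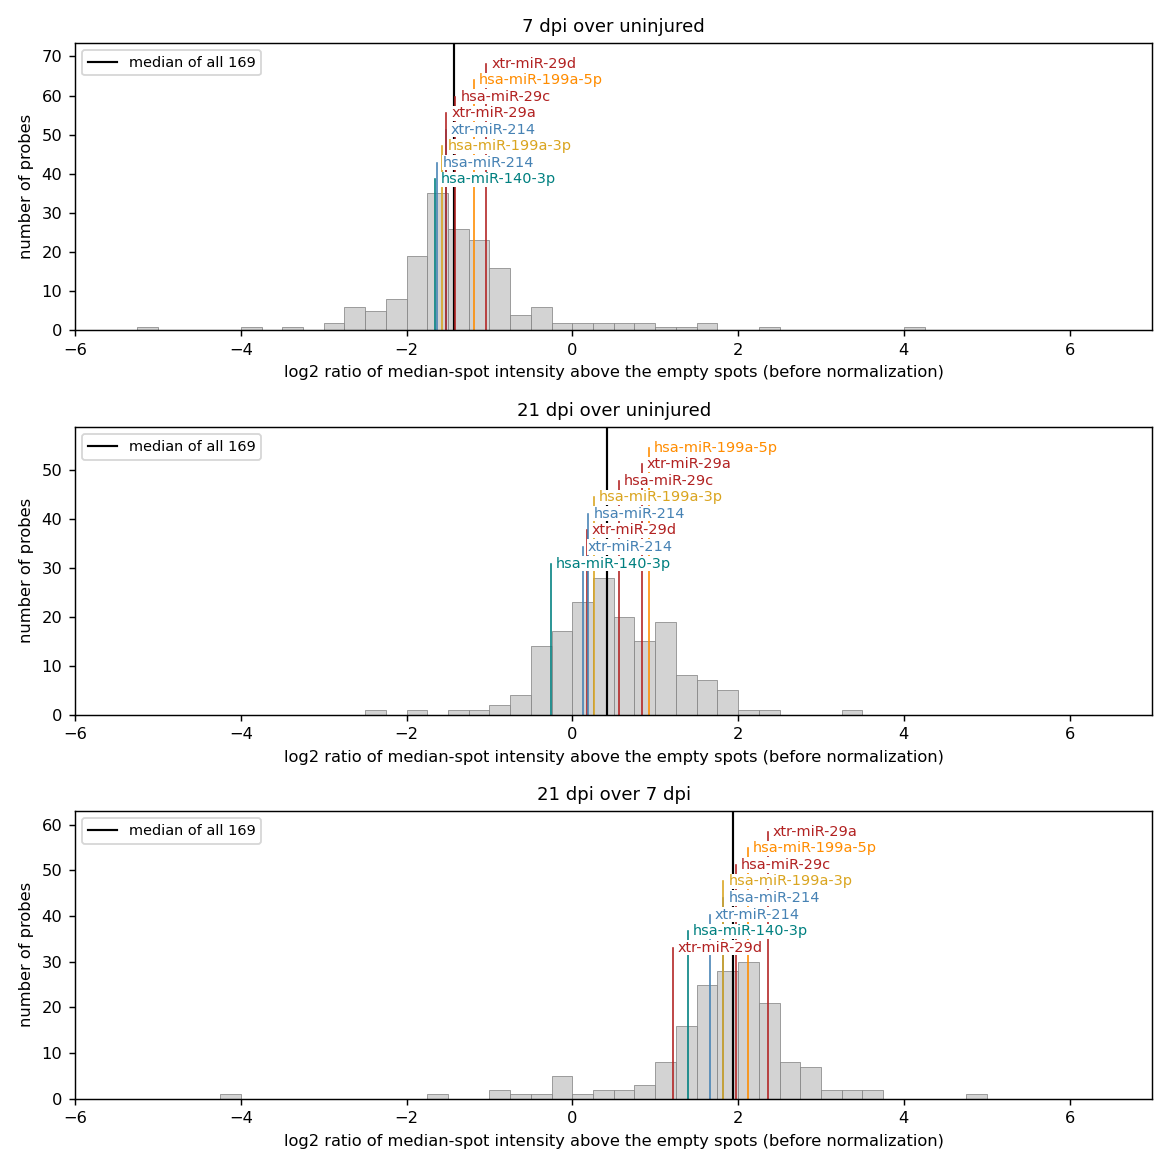
Log2 ratio of signal above the empty spots, before normalization, for the 169 probes detected on all arrays (grey histogram, number of probes per bin of ratio), with their median as a black line and the 8 probes of interest as coloured lines, 1 panel per comparison. The coloured lines stand inside the bulk of the histogram, between 0.318 and 0.486 of the uninjured signal at 7 dpi and between 0.835 and 1.90 times it at 21 dpi.

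Before any normalization, the 8 probes also moved with the array as a whole. Their 7 dpi signals were 0.318 to 0.486 times those of the uninjured heart, in a range where the central 90% of the 169 probes, from percentile 5 to percentile 95, ran from 0.175 to 1.56. Their 21 dpi signals were 0.835 to 1.90 times those of the uninjured heart, where that central part ran from 0.672 to 3.28. In each comparison 3 of the 8 lay above the median of all probes and 5 below it. xtr-miR-29d had the highest ratio of the 8 at 7 dpi and hsa-miR-199a-5p the highest at 21 dpi, while hsa-miR-140-3p had the lowest at both times.

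**Figure D2:**
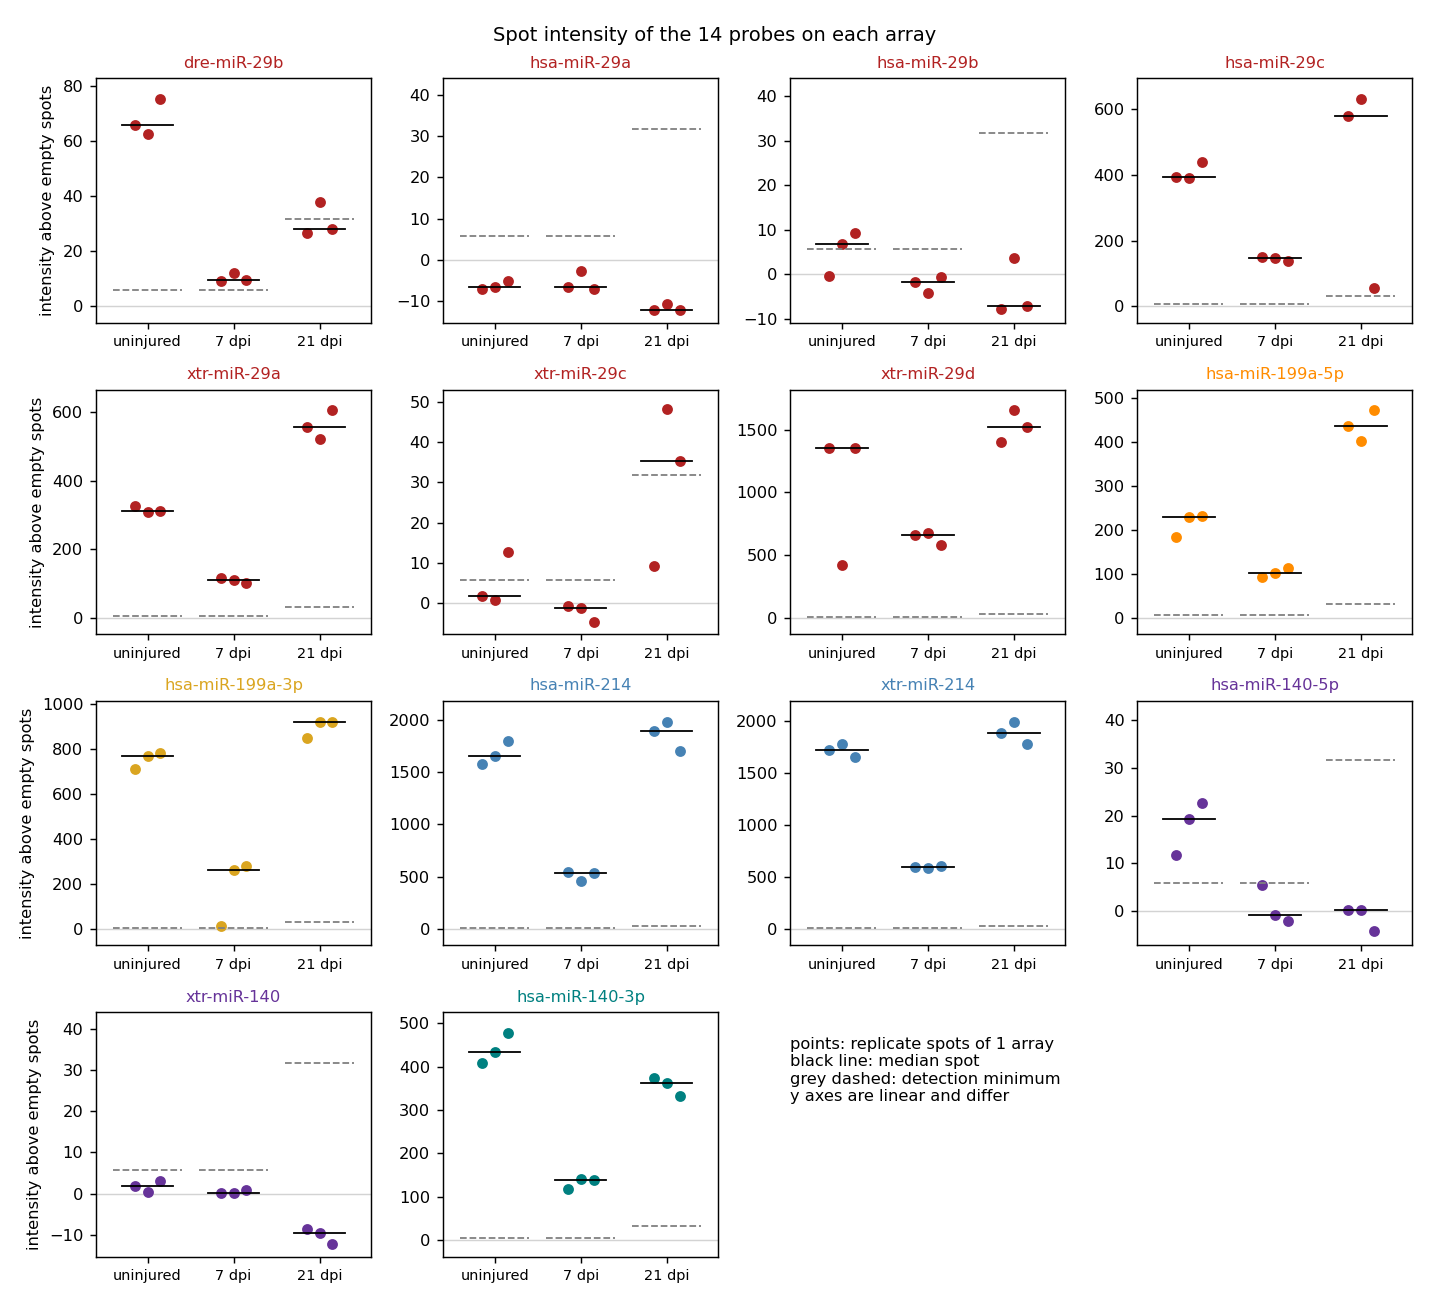
Signal of each replicate spot above the median of the empty spots (linear y axis, intensity units, scale set per panel) on the uninjured, 7 dpi and 21 dpi arrays, for the 14 probes. Black lines mark the median spot and grey dashed lines the detection minimum, and single dim spots stand out for hsa-miR-29c at 21 dpi (56.5), xtr-miR-29d in the uninjured heart (423) and hsa-miR-199a-3p at 7 dpi (12.5).

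Within the miR-29 family, which restrains collagen genes, 3 of 7 probes were detected on every array. The spots of xtr-miR-29a read 309, 312 and 325 in the uninjured heart, then 101, 109 and 116 at 7 dpi and 520, 557 and 605 at 21 dpi. The 3 arrays did not overlap, and the order of the readings was that of the arrays as a whole. After normalization its level was 8.12 at 7 dpi and 8.39 in the uninjured heart, a difference of -0.27 ± 0.04, with spots still apart. At 21 dpi the level was 8.70, a difference of 0.30 ± 0.06 from the uninjured heart and of 0.58 ± 0.07 from 7 dpi, again without overlap. Under other processing the 7 dpi value ran up to 0.04, when arrays were aligned on the median of the shared probes, and the 21 dpi value down to -0.82, with spike-in scaling. The difference between 21 and 7 dpi stayed positive under all 11 alternatives, from 0.35 to 1.88. Alternatives that change only the detection rule are counted here and below, and leave each difference as it is.

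The longer target hsa-miR-29c gave spots of 392, 392 and 440 in the uninjured heart, then 139, 148 and 151 at 7 dpi, and 56.5, 579 and 631 at 21 dpi. One 21 dpi spot was dim, and its brightness varied within the spot by an SD of 103, against 43.5 and 39.6 in the other two. At 7 dpi the difference from the uninjured heart was 0.00 ± 0.05, with overlapping spots. At 21 dpi it was -0.57 ± 0.80, and 0.15 by the median spot, so the dim spot decides its sign. By the median spot, raw signal at 21 dpi was 1.47 times that of the uninjured heart, beside 1.79 for xtr-miR-29a.

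The frog variant xtr-miR-29d gave 423, 1356 and 1357 in the uninjured heart, then 579, 659 and 672 at 7 dpi, and 1402, 1527 and 1655 at 21 dpi. Here the dim spot was on the uninjured array. The normalized difference at 7 dpi was 0.72 ± 0.52 and fell to 0.42 by the median spot and 0.47 in the authors' deposited table. At 21 dpi it was 0.32 ± 0.52, and -0.02 by the median spot. Between 21 dpi and 7 dpi, which the dim spot does not touch, the difference was -0.40 ± 0.09 with separate spots. That of xtr-miR-29a in the same comparison was 0.58, so 2 probes with one seed stood on opposite sides of 0. Under the no-normalization setting both were positive, at 1.19 for xtr-miR-29d and 1.88 for xtr-miR-29a, and 5S rRNA scaling also turned xtr-miR-29d positive.

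The zebrafish probe dre-miR-29b was dim. Its spots read 62.4, 65.8 and 75.1 in the uninjured heart, then 9.16, 9.60 and 12.0 at 7 dpi, and 26.6, 28.1 and 37.8 at 21 dpi, where the median spot was under the detection minimum. The uninjured array stood above both injured arrays with no overlap, also at 21 dpi, where most probes were brighter than in the uninjured heart. Its raw signal at 7 dpi was 0.146 times the uninjured one, beside the array median of 0.371. The normalized difference was -0.79 ± 0.04 at 7 dpi, short of 2-fold. At 21 dpi the level was 1.50-fold lower than in the uninjured heart, a difference of -0.58 ± 0.06. The 21 dpi mean was not below the lowest detected level of its array, so this is the measured difference and not a lower limit. The offset of 50 added before taking logs compresses differences of so dim a probe. With an offset of 16 the 7 dpi difference was -1.21, with plain subtraction of the empty spots -1.11, and in the authors' deposited table -1.43, each past 2-fold. Aligning arrays on the median of shared probes gave 0.34. At 21 dpi all 12 alternatives were negative, from -1.92 to -0.36.

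The remaining miR-29 probes carried little or no signal. hsa-miR-29a, the U10C variant, was not detected on any array. hsa-miR-29b passed the detection minimum in the uninjured heart alone, with spots of -0.4, 6.8 and 9.3. Its 7 dpi value moved from -0.22 to 1.02 when arrays were aligned on the median of the shared probes. xtr-miR-29c, the 20-base target, passed the detection minimum at 21 dpi alone, with spots of 9.3, 35.2 and 48.1. Its 21 dpi level was 1.26-fold above the lowest detected levels of the 7 dpi and uninjured arrays. Its spots overlapped those of the uninjured heart, with a difference of 0.33 ± 0.19. Against 7 dpi the difference was 0.55 ± 0.17 with separate spots. That difference was positive in 8 of 11 alternatives and lowest at -0.81, with arrays aligned on the shared-probe median. Passenger strands of the hairpins, read by the probes hsa-miR-29a*, hsa-miR-29b-1*, hsa-miR-29b-2*, hsa-miR-29c* and xtr-miR-29c*, were not detected on any array. In the authors' deposited table the 21 dpi difference of xtr-miR-29c was 1.09, and with spike-in scaling it was -0.99.

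**Figure D3:**
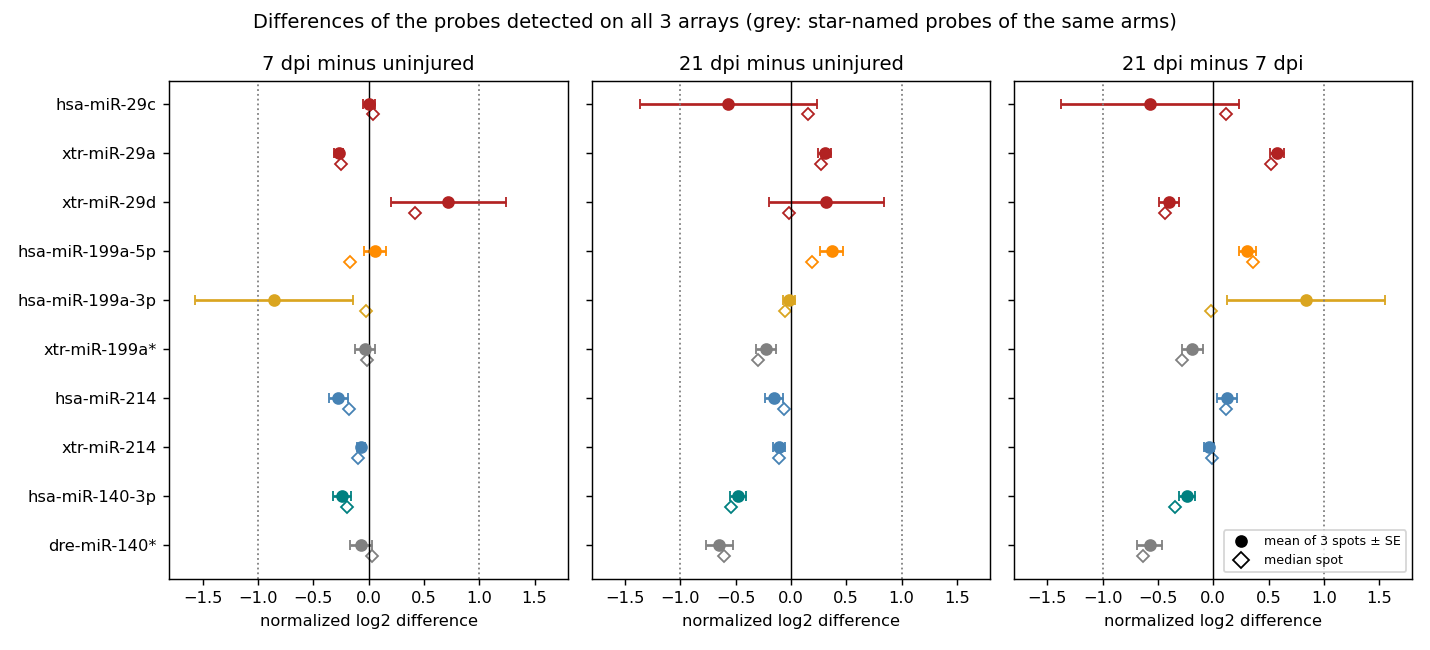
Normalized log2 differences (x axis) of the 8 probes detected on all arrays, with the star-named probes of the same arms in grey, in 3 panels for 7 dpi minus uninjured, 21 dpi minus uninjured and 21 dpi minus 7 dpi. Filled points are means of 3 spots ± SE over spots, open diamonds the median spot, and dotted lines mark 2-fold, which no filled point passes. Wide bars belong to hsa-miR-29c, xtr-miR-29d and hsa-miR-199a-3p, each with 1 dim spot.

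Probes for both arms of miR-199a were detected on every array, though the 3p probe also stands for human miR-199b-3p, which has the same sequence. The 5p arm, hsa-miR-199a-5p, gave 183, 229 and 232 in the uninjured heart, then 92.2, 100.3 and 112 at 7 dpi, and 401, 434 and 471 at 21 dpi. The arrays did not overlap before normalization. After it, the 7 dpi and uninjured levels were 8.04 and 7.98, a difference of 0.06 ± 0.10 with overlapping spots, or -0.17 by the median spot. At 21 dpi the level was 8.35, a difference of 0.37 ± 0.10 with separate spots, or 0.19 by the median spot. Its raw ratio of 1.90 ranked 45 of 169 from the highest. The 21 dpi difference stayed positive in 11 of 12 alternatives and was -0.69 with spike-in scaling. The frog probe xtr-miR-199b, C18G from this target and left out by name, stood at -0.11 ± 0.12 at 21 dpi with overlapping spots, and at -0.48 ± 0.13 at 7 dpi. Human miR-199b-5p, which differs by C10U and C17U, was not detected.

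For the 3p arm, hsa-miR-199a-3p gave 710, 769 and 782 in the uninjured heart, then 12.5, 259 and 281 at 7 dpi, and 850, 918 and 919 at 21 dpi. One 7 dpi spot was near the empty spots while its replicates were not. The mean of spots gave -0.86 ± 0.71 at 7 dpi, the lowest value of the group, while the median spot gave -0.03 and the authors' deposited table -0.13. The star-named frog probe xtr-miR-199a* targets the same arm shifted by 1 base and was left out by name. Its spots were 426, 440 and 497 in the uninjured heart, then 129, 148 and 162 at 7 dpi, and 436, 444 and 517 at 21 dpi, with no dim spot. It stood at -0.03 ± 0.09 at 7 dpi with overlapping spots. At 21 dpi hsa-miR-199a-3p was at -0.02 ± 0.05 and xtr-miR-199a* at -0.23 ± 0.09. A spot under 50% of the median spot occurred in 5 of 134 probes with over 100 units of signal on the uninjured array, in 7 of 109 at 7 dpi and in 18 of 147 at 21 dpi, so such spots were not confined to these probes.

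miR-214, which shares its mammalian transcript with miR-199a, was read by a pair of bright probes. hsa-miR-214 read 1579, 1656 and 1796 in the uninjured heart, then 461, 535 and 542 at 7 dpi, and 1697, 1892 and 1980 at 21 dpi. xtr-miR-214 read 1650, 1724 and 1782, then 590, 598 and 609, and then 1774, 1884 and 1991 on the same arrays. No spot was dim, and the raw 7 dpi readings lay well below the other arrays for both probes. After normalization hsa-miR-214 was at -0.27 ± 0.08 and xtr-miR-214 at -0.07 ± 0.03 at 7 dpi, where the spots of hsa-miR-214 were separate. At 21 dpi they were at -0.15 ± 0.08 and -0.11 ± 0.06 with overlapping spots. Raw ratios to the uninjured heart were 0.323 and 0.347 at 7 dpi and 1.14 and 1.09 at 21 dpi. At 21 dpi both turned slightly positive without normalization, at 0.15 and 0.13. The other probe on the array with this seed, hsa-miR-761, was not detected on any array, nor was the passenger strand hsa-miR-214*.

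The 3p arm of miR-140, the arm that the array names as the star strand in zebrafish, was the one of these miRNAs whose raw signal was lower at 21 dpi than in the uninjured heart on a probe detected throughout. hsa-miR-140-3p read 407, 434 and 477 in the uninjured heart, then 117, 138 and 141 at 7 dpi, and 331, 362 and 373 at 21 dpi. Its 21 dpi spots all lay under the uninjured ones, although the median probe was 1.33 times brighter at 21 dpi. The raw ratio of 0.835 ranked 146 of 169 from the highest. Its normalized difference was -0.24 ± 0.08 at 7 dpi and -0.48 ± 0.07 at 21 dpi, both with separate spots, and the 21 dpi value was negative under all 12 alternatives, from -1.79 to -0.23. The zebrafish probe dre-miR-140*, which has the same target with 2 more bases, was left out by name and also reads this arm. It read 630, 653 and 765 in the uninjured heart, then 190, 207 and 226 at 7 dpi, and 414, 479 and 538 at 21 dpi. Its raw 21 dpi ratio was 0.734, rank 158 of 169, and its normalized differences were -0.65 ± 0.12 at 21 dpi and -0.07 ± 0.10 at 7 dpi. Neither probe reached 2-fold, and both can bind the same molecules.

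The 5p arm of miR-140 was near the empty spots. hsa-miR-140-5p read 11.7, 19.2 and 22.6 in the uninjured heart, then -2.1, -0.8 and 5.5 at 7 dpi, and -4.3, 0.2 and 0.2 at 21 dpi. It was detected in the uninjured heart alone, at least 1.16-fold lower at 7 dpi and 1.01-fold lower at 21 dpi. In the authors' deposited table the 7 dpi difference was -1.01, just past 2-fold, and aligning arrays on their shared probes' median gave 0.84. xtr-miR-140 was not detected on any array.

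**Figure D4:**
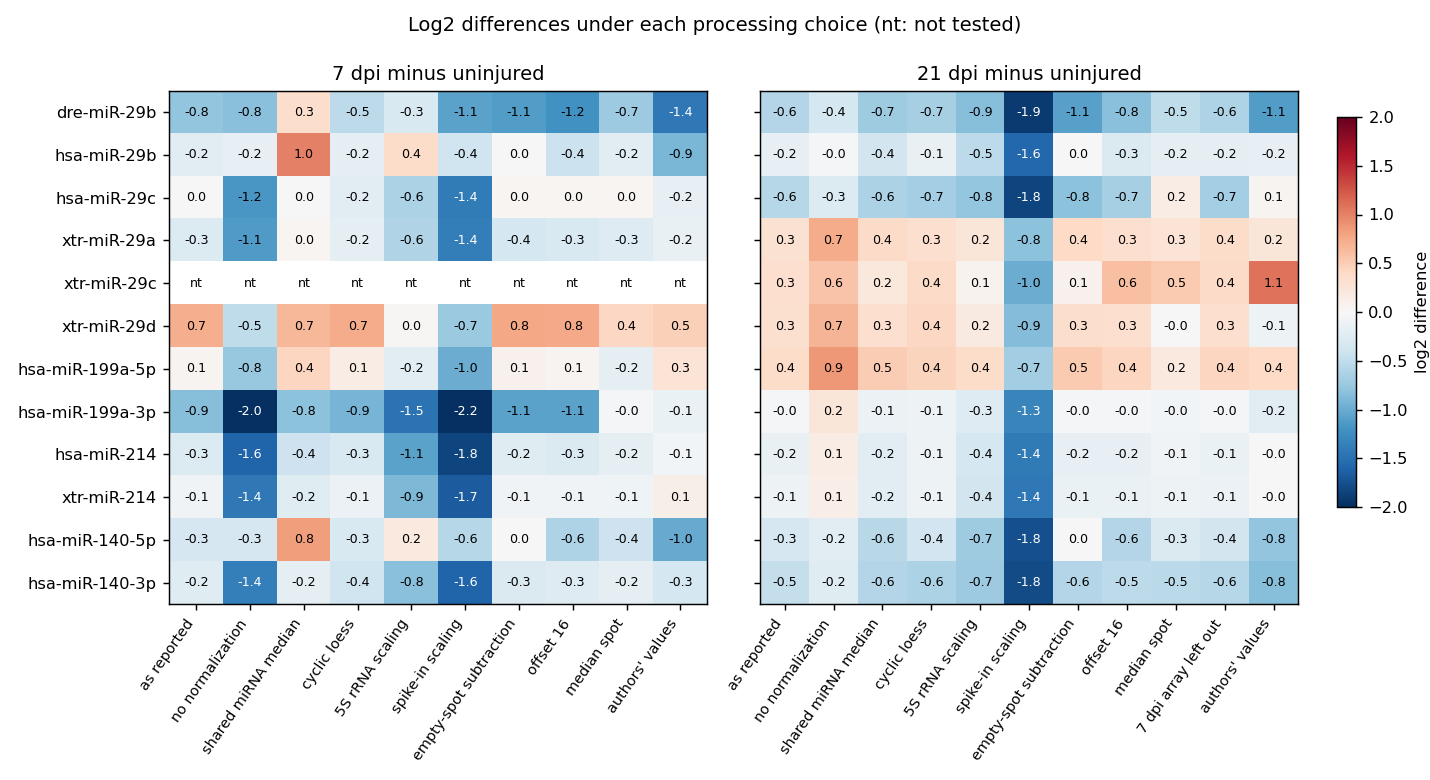
Log2 differences of the 12 probes tested at 21 dpi, 7 dpi minus uninjured on the left and 21 dpi minus uninjured on the right, as reported and under each alternative that changes values (columns), red for positive and blue for negative, with nt for a probe not tested. Spike-in scaling gives negative values throughout its columns, and the row of hsa-miR-140-3p is negative in every column of both panels.

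Other miRNAs with known roles in fibrosis or matrix genes were read from a list of 22 names, each by its brightest probe. Against the uninjured heart, 3 of 16 tested were called at 7 dpi, where 12.5% of all tested probes were, and 1 of 15 at 21 dpi, where 3.04% were. These few calls do not set the list apart from the array. Called higher at 7 dpi were miR-21, raised in many injured tissues, at 1.76 ± 0.13, the leukocyte miRNA miR-155 at 1.51 ± 0.38, and the liver miRNA miR-122, at least 2.98-fold. At 21 dpi miR-21 alone was called, at 2.62 ± 0.12. For 21 dpi against 7 dpi, 2 of 16 were called, beside 12.6% of all tested. They were miR-145, a smooth muscle miRNA, higher at 1.12 ± 0.11, and miR-122, at least 2.60-fold lower. Other probes of miR-145 were under 2-fold in this comparison, with dre-miR-145 at 0.86 and xtr-miR-145 at 0.39. The median over the 15 detected on all arrays was 0.22 at 7 dpi and 0.17 at 21 dpi. The brightest of the list were not called at either time, with miR-30c at 0.25 ± 0.09 and 0.17 ± 0.04, miR-26a at -0.44 ± 0.26 and -0.21 ± 0.08, and miR-125b at 0.24 ± 0.07 and -0.24 ± 0.07.

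The miRNA names with patterns most like these were found by the Euclidean distance between pairs of differences, at 7 dpi and 21 dpi against the uninjured heart, over 3 arrays and 131 other names. Each name was read by its brightest probe, and other probes of a miRNA can differ. At 7 dpi hsa-let-7e stood at -1.31 beside -0.70 for xtr-let-7e, and hsa-miR-499-5p at -1.15 beside 0.11 for dre-miR-499. The gap of the miR-499 probes was not seen by the median spot. Their log2 ratios of raw signal at 7 dpi were -1.26 for hsa-miR-499-5p and -1.34 for dre-miR-499. For hsa-miR-199a-5p the nearest were hsa-miR-30d (distance 0.06), xtr-miR-27c (0.06) and dre-miR-499 (0.09). For xtr-miR-214 they were hsa-miR-363 (0.07), xtr-miR-26 (0.08) and hsa-miR-451 (0.11). For hsa-miR-140-3p they were hsa-miR-101 (0.11), hsa-let-7g (0.13) and hsa-miR-93 (0.14). xtr-miR-29d was nearest to the frog probe xla-miR-15c (0.03), hsa-miR-24 (0.09) and xtr-miR-150 (0.16). hsa-miR-199a-3p was nearest to xtr-let-7e (0.16), hsa-miR-148a (0.29) and hsa-miR-148b (0.31). The patterns of xtr-miR-29d and hsa-miR-199a-3p include a dim spot. The match of miR-101 depends on its spots too: at 21 dpi miR-101 stood at -0.46 ± 0.31, and at -0.81 by the median spot. That of hsa-miR-93 to hsa-miR-140-3p was not seen in raw signal by the median spot. The log2 ratio of hsa-miR-93 at 21 dpi was 0.79, above the array median of 0.42, beside -0.26 for hsa-miR-140-3p. Nor was the match of hsa-miR-363 to xtr-miR-214 seen in raw signal. Their log2 ratios at 7 dpi were -0.86 and -1.53, on either side of the array median of -1.43. Another probe, xtr-miR-363-3p, had a normalized difference of -0.51 at 7 dpi, beside -0.11 for hsa-miR-363. miR-24 itself stood at 0.64 ± 0.48 at 7 dpi and at 0.01 by the median spot.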

How the data were processed

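Each scanner file holds 1 channel of 1 array with 5022 spots, of which 587 are empty, and lists a median intensity for each spot, per the file headers. The values are linear, and local background is not among the columns. The labels give 0.5 µg of RNA as assay input. The table deposited by the authors holds 1 processed linear intensity per probe, background subtracted by its values, with the scaling unknown. Its array medians were 1.49, 0.807 and 2.40, and it served as an alternative, as log2 of the value plus 8, where spot overlap could not be asked.

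Intensities were corrected with normexp (offset 50, all spots) in limma 3.58.1 under R 4.3.3, put on the log2 scale, averaged over 3 spots and given a common distribution by quantile normalization of the miRNA probes. For a probe detected on 1 array only, the other array's value was raised to that array's lowest detected level where it was below this, which gives only a bound. Where it was not below this, the measured difference was left and is no bound. The calling step was run on simulated data with planted changes. Those data held no dim spots, unlike these arrays, so the run cannot show how calls behave where a spot is dim. The number of arrays limits the precision. The members, lists and tests were chosen with earlier results of these data known. Named were all members, left-out probes of the same numbers, called or bright members of the fibrosis list, and the 3 nearest patterns per family.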

Additional observations from a re-analysis of the deposited data

Results flagged for a closer look

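The frog probe xtr-miR-29a stood on opposite sides of the uninjured heart after injury, at -0.27 at 7 dpi and 0.30 at 21 dpi, with no overlap of spots in either comparison. Separate spots were common, since spots overlapped in 61 of 169 probes at 7 dpi and 83 of 169 at 21 dpi. The 7 dpi value was 0.04 with arrays aligned on the shared-probe median, and the 21 dpi value -0.82 with spike-in scaling. The longer target hsa-miR-29c stood at 0.00 ± 0.05 at 7 dpi with overlapping spots, and at 0.15 by the median spot at 21 dpi. Both values of xtr-miR-29a are under 2-fold and rest on 1 sample per time. The difference between the times was not tested against variation between samples.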

How the results depend on the processing

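The count of called probes was 0 in 4 of 11 alternatives at 7 dpi, in 9 of 12 at 21 dpi and in 6 of 11 for 21 dpi against 7 dpi. Among these, the stricter detection rule for every replicate spot could only take calls away. With no normalization it was 6 at 7 dpi and 7 for 21 against 7 dpi, and with spike-in scaling 7 at 7 dpi and 8 at 21 dpi. With 5S rRNA scaling it was 2 at 7 dpi and 1 for 21 against 7 dpi, and the shared-probe median as scale gave 1 in each of these. Plain subtraction gave 1 at 7 dpi and 1 at 21 dpi, offset 16 gave 1 at 7 dpi and 1 for 21 against 7 dpi, and the authors' processed values 2, 2 and 1 in the 3 comparisons. Over all probes, calls numbered 32, 7 and 29 of 255, 230 and 231 tested, and the scaling does not change the numbers tested. They were 102, 19 and 131 with no normalization, 74, 17 and 69 with the shared median, 53, 19 and 60 with 5S rRNA, 116, 164 and 63 with spike-ins, 51, 14 and 48 with offset 16 and 74, 43 and 64 in the authors' values. Subtraction gave 19 and 52, and cyclic loess 16, for the comparisons it moved. With the 7 dpi array left out of the normalization, an alternative chosen after seeing the data, 12 probes were called at 21 dpi and none of these members. Requiring every replicate spot above the detection minimum, or dropping the filter on dim probes, changes detection only and leaves each difference as it is. With these settings counted, 68 of 121, 102 of 144 and 70 of 110 of the members' single differences moved by less than the spread of spots. A dim spot widens that spread, so large moves can count as within it. For hsa-miR-29c at 21 dpi, the move from -0.57 to -1.84 with spike-in scaling did. The cause of the moves was not tested. Signals near the empty spots limit dre-miR-29b, hsa-miR-29b, xtr-miR-29c and hsa-miR-140-5p. No paired analysis was possible because each group has 1 sample.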
